A study of Mus musculus with 12 samples.

Results

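The cytosolic ribosomal protein genes were followed in mouse ANS cells as these neural stem cells left proliferation and differentiated. Members were selected on 2 criteria. The symbol had to follow the naming scheme of the small subunit proteins (Rps and Rpsa) or of the large subunit proteins (Rpl and Rplp0, Rplp1 or Rplp2), and the gene had to hold at least 100 counts summed over the 12 libraries. Of 84 symbols with such a name 77 passed the minimum, out of 22609 genes in the count tables. They were 30 core proteins of the 40S subunit, 44 core proteins of the 60S subunit and 3 paralogs, Rpl7l1, Rpl22l1 and Rps27l. The minimum uses the summed counts and no difference between groups. Just inside it were Rps27 with 165 counts and Rpl24 with 184. Just outside were Rpl29 with 71 counts, Rps23 with 30 and Rpl3l with 11, and below them Rps4y2 with 6, Rpl26 with 2, Rpl10l with 1 and Rpl39l with 0.

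ANS cells are adherent neural stem cells, here derived from E14.5 mouse brain and kept as a culture. RNA-seq had been carried out at 4 stages. T0 cells (3 libraries) proliferated in growth medium with 20 ng/ml FGF2, 20 ng/ml EGF and 1% N2. T1 cells (3 libraries) were taken 2 days after the change to medium D1, with 10 ng/ml FGF, 2 ng/ml EGF, 0.5% N2 and 1% B27. T2 cells (4 libraries) had passed through D1 and then spent 2 days in medium B, with 10 ng/ml FGF2, 20 ng/ml BDNF, 0.5% N2 and 1% B27 and no EGF, and T3 cells (2 libraries, replicates 1 and 4) 10 days in that medium. All groups share FGF and N2, and the labels name no deletion or transgene. The study's methods call the replicates of a stage biological, and the labels do not say whether they were separate cultures. The depth was 8910724 to 16631614 counts on genes in a library. T0 replicate 3 stood apart from the other T0 libraries: the chi-square per gene was 101 and 105 against them and 3.28 between them, so results are also given without it. The T3 group is labelled GAD+. The 7 GABAergic markers summed to 4.40 to 7.75 CPM (counts per 1000000 counts on genes) at T0 and 35.8 to 42.6 at T1. They summed to 48.2 to 61.0 CPM at T2 and 27.2 to 51.4 at T3. But Dlx5 had 0 counts in every library, and Gad2, Slc32a1, Dlx2 and Dlx6 had at most 5 counts in each.

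The ribosome is built from a small subunit, which reads the mRNA, and a large subunit, which joins amino acids, and each subunit holds ribosomal RNA and single copies of most ribosomal proteins. Cells that grow and divide spend much of their translation on making these proteins. The mRNAs of ribosomal proteins typically begin with a terminal oligopyrimidine (TOP) tract, a stretch of C and T at the transcription start that places their translation under control of the mTOR pathway. Mammalian genomes also hold many processed copies of these genes. A read that matches a copy as well as its gene cannot be placed uniquely, and reads of this kind were not counted.

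The start sites are shown first, because the TOP tract is the shared sequence feature of the family. Of the 77 members, 57 had an annotated promoter in RefSeq (GRCm38.p6). The tract was searched on the sense strand as a run of at least 5 letters, each C or T and begun by C, whose first letter lay within 5 bases of the annotated start. It was found in 28 members (49.1%) and in 21.2% of all 27025 genes with a promoter window. On the opposite strand it was found in 15.8% of members and 24.6% of all genes. The letters CTTTC, on either strand within 15 bases of the start and often part of the tract, were in 29.8% of members and 8.83% of all genes. Rplp0, Rps19, Rps28, Rpsa, Rpl22 and Rpl9, which are also named below, held none. Below are 30 bases around the start of 7 named members that hold a tract, 15 before it and 15 from it on, with the tract in capitals.
Rpl13a (7, 45128731 to 45128760, minus strand): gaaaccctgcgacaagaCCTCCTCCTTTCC
Rpl22l1 (3, 28805493 to 28805522, plus strand): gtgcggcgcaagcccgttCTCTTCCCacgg
Rpl12 (2, 32961697 to 32961726, plus strand): ggcggagcaggatccgtCTTTTCggctttc
Rps18 (17, 33955651 to 33955680, minus strand): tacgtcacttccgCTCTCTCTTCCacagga
Rplp2 (7, 141447636 to 141447665, plus strand): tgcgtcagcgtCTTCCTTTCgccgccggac
Rps6 (4, 86857353 to 86857382, minus strand): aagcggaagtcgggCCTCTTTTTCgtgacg
Rpl15 (14, 18270972 to 18271001, minus strand): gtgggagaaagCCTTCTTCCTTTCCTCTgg
The first 5 genes fell in at least one comparison below, Rps6 varied widely between replicates, and Rpl15 was not lower at any stage. A tract was thus found in members of all 3 kinds, but all 7 shown hold one, so they do not compare the kinds. The median log2 fold change at T2 was -0.84 in the 28 members with a tract and -0.92 in the 29 without one. Of these members 18 and 21 were called lower at T2, beside 21.8% of all genes tested. At T1 it was 14 and 16 (16.8% of all genes), and at T3 3 and 0 (1.41% of all genes). A match is a description of these letters in the annotated window, and annotated starts can lie away from the start used in these cells.

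Ribosomal protein genes took a smaller share of the counted reads at every later stage than at T0. At T0 the 77 members held 1.33%, 1.36% and 1.52% of the reads counted on genes. The T1 libraries held 0.884%, 0.757% and 1.07%. The T2 libraries held 0.816%, 0.688%, 0.9504% and 0.796%, and the T3 pair 0.763% and 0.991%. Every later library lay below every T0 library, and the later stages overlapped each other. The mean share was 1.40% ± 0.102 (SD, n = 3) at T0, 0.904% ± 0.158 (n = 3) at T1, 0.813% ± 0.108 (n = 4) at T2 and 0.877% ± 0.161 (n = 2) at T3, so that the later means were 0.645, 0.579 and 0.6254 of the T0 mean. Counting error added at most 0.00650 percentage points to any library (from its centre to either end of the 95% Wilson interval). The deposited FPKM table, which lists 76 of the members, gave the same order on its own scale. Members made up 3.32% to 3.402% of the summed FPKM at T0 and 2.11% to 2.73% at T1. They made up 1.69% to 2.24% at T2 and 1.92% and 2.08% at T3. In these bulk libraries, fewer cells with a high level and a lower level in each cell cannot be told apart.

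**Figure D1:**
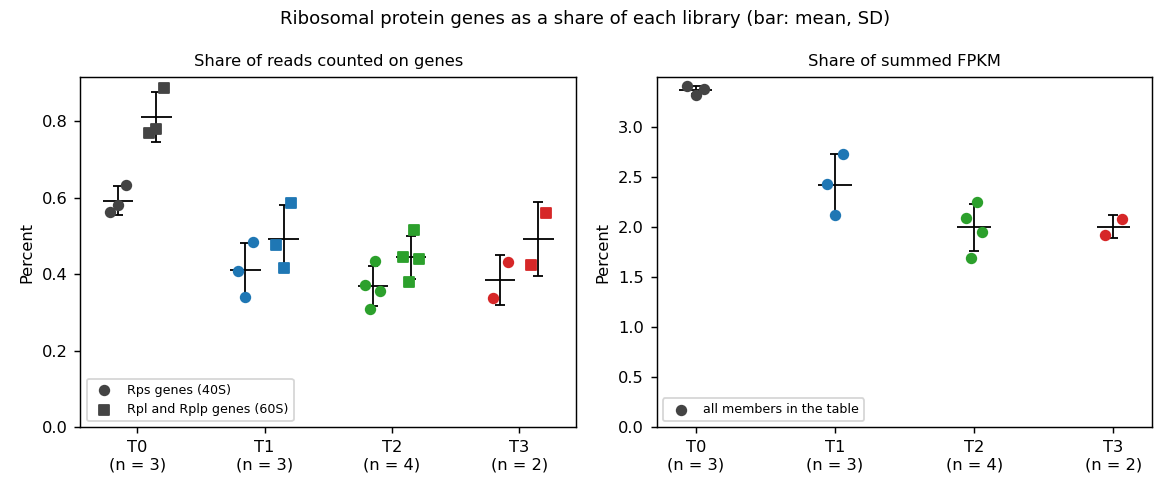
Percent of reads counted on genes that fell on Rps (circles) and on Rpl and Rplp genes (squares) at left, and percent of summed FPKM held by the members at right, for each library at T0 to T3, with the mean and SD as bars. Every later library lies below every T0 library on both scales, and T1, T2 and T3 overlap each other in the counts.

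Some other values moved with this share, and others did not. The cycling cell markers Mki67, Top2a, Ccnb1 and Cdk1 had a summed level of 1167 to 1674 CPM (on library totals) at T0 and 64.1 to 170 at T1. Their level was 98.2 to 215.5 CPM at T2 and 376 to 669 at T3. Alignments that were not unique made up 34.0% to 39.0% of all entries at T0 and 27.5% to 33.3% at T1. They made up 25.99% to 30.9% at T2 and 28.2% and 32.8% at T3. Within each stage the library with the most such alignments, T0 replicate 3, T1 replicate 3, T2 replicate 3 and T3 replicate 4, also held the largest member share. The neuronal markers summed to 832 to 955 CPM at T0 and 1999 to 2517 at T1. The oligodendrocyte lineage markers summed to 3130 to 3374 CPM at T0, 3917 to 4155 at T1, 4020 to 4676 at T2 and 5083 to 6215 at T3, with every later library above T0. The progenitor markers summed to 5329 to 6965 CPM at T0 and 5629 to 7082 at T1. They summed to 5026 to 6054 CPM at T2 and 5530 to 5895 at T3. The astrocyte markers summed to 698 to 1960 CPM at T0, 1284 to 1443 at T1, 1571 to 1817 at T2 and 1233 to 1527 at T3. Both sums overlapped T0 at every later stage. The 5 microglial markers had at most 5 counts each in any library. The part of these values in the result was not tested.

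At T1, 2 days after the change to medium D1, 39 of the 77 members were lower than at T0 and 0 were higher (edgeR quasi-likelihood test, Benjamini-Hochberg adjusted p under 0.05 over all 12364 genes tested; all 77 members passed the filter on low counts). Among all genes tested 16.8% were lower and 15.1% higher. The median log2 fold change of the members was -0.73, beside -0.01 over all genes. At an unadjusted p under 0.05 there were 54 lower and 0 higher members, beside 2860 and 2679 of all genes tested. DESeq2 also called 0 members higher. In 56 members every T1 library lay below every T0 library, which was the case for 27.2% of all genes tested. The fitted difference was below 0 in 74 members. The count was 7 without T1 replicate 1, 6 without T1 replicate 2 and 34 without T1 replicate 3. In these fits 9.09%, 7.79% and 44.2% of members were lower, beside 7.84%, 7.5% and 9.69% of all genes tested. Without T1 replicate 1 or T1 replicate 2 the members were thus called lower about as often as all genes. Of the 39 calls only 7 and 6 were kept in these fits. The T1 calls of single genes named below, made with all libraries, carry this limit. The count was 29 without T0 replicate 1 and 25 without T0 replicate 2 (14.4% and 14% of all genes lower). Without T0 replicate 3 it was 48 (24.9% of all genes lower), with a median of -0.58. DESeq2 gave 46 lower members (14.9% of all genes lower).

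At T2, after 2 days in medium B, 54 members were lower than at T0 and 0 were higher, when 21.8% of 12607 genes tested were lower and 21.4% higher. The median log2 fold change was -0.88 for the members and 0.00 for all genes. At an unadjusted p under 0.05 there were 59 lower and 0 higher members, beside 3324 and 3289 of all genes tested. DESeq2 called 57 members lower and 0 higher, beside 3045 and 3029 of all 17557 genes. Every T2 library lay below every T0 library in 56 members and in 26.6% of all genes tested. Leaving out single libraries gave between 46 and 56 lower members, when 16.6% to 25.3% of all genes tested were lower. Without T0 replicate 3 there were 56, including all 54 (25.3% of all genes lower). In the FPKM table, limma on log2(FPKM + 1) called 51 of 75 members tested lower, with 48 of the 54 among them. On that scale 22.5% of all genes tested were lower, and the median of all genes was -0.17. By subunit, 23 of 30 core 40S members and 28 of 44 core 60S members fell, with medians of -0.89 and -0.88.

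At T3, after 10 days in medium B, the members stood at a similar level, with a median log2 fold change against T0 of -0.70 (-0.01 over all 12721 genes tested). Only 5 members passed the test as lower (Rpl17, Rpl22l1, Rpl13a, Rpl32 and Rps18) and 0 as higher, when 1.41% of genes tested were lower and 3.31% higher. At an unadjusted p under 0.05 there were 45 lower members and 1 higher, beside 1607 lower and 1743 higher of all genes tested. Both T3 libraries lay below every T0 library in 55 members and in 25.5% of all genes. With 2 libraries the count depended on the fit. It was 27 without T0 replicate 3, 39 when all 12 libraries shared one estimate of the spread, and 34 with DESeq2. In these fits 8.49%, 14.4% and 5.41% of all genes tested were lower. The count was 0 without T0 replicate 1 and 0 without T0 replicate 2 (0.00794% and 0.016% of all genes lower). Without T3 replicate 1 or T3 replicate 4, which leaves 1 T3 library, the median was -0.54 or -0.89 in turn. T3 replicate 1 was the lower of the pair in 65 of 77 members, with a median log2 difference from T0 of -0.87, against -0.49 in T3 replicate 4.

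**Figure D2:**
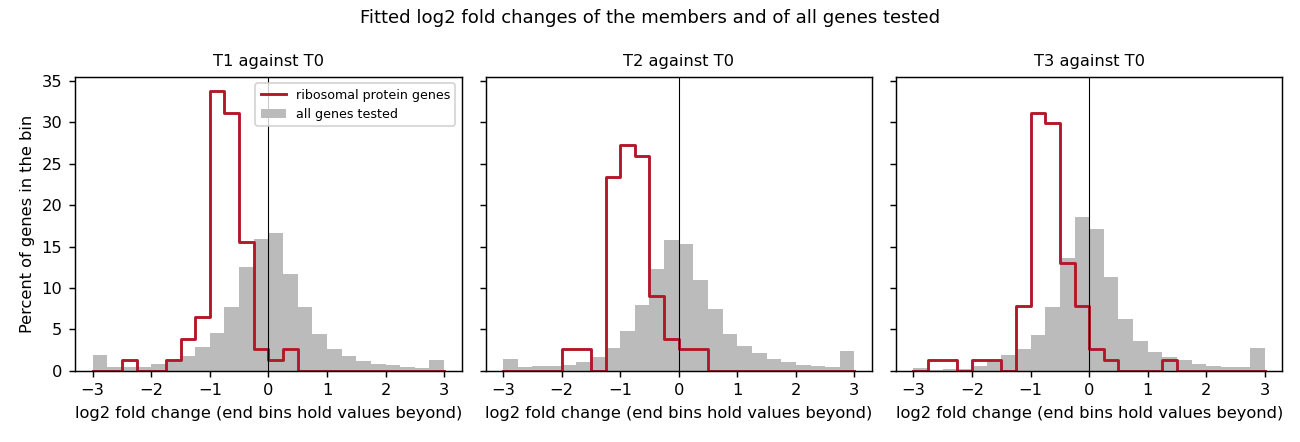
Percent of genes (y axis) in bins of the fitted log2 fold change (x axis), for the 77 members as a red line and all genes tested as grey bars, at T1, T2 and T3 against T0. The members centre on medians of -0.73, -0.88 and -0.70, while all genes centre on 0, and the 3 comparisons share the T0 libraries.

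Between the later stages no member passed the test as fitted. From T1 to T2 there were 0 lower and 0 higher members (0.0565% and 0.573% of 12382 genes tested), and the median difference was -0.15 (log2). At an unadjusted p under 0.05, edgeR gave 5 lower and 0 higher members, beside 524 and 920 of all genes tested. DESeq2 called 0 members in either direction. Whether the replicate numbers pair T1 and T2 libraries was not settled. With the number as a block in edgeR, 2 members (2.6%) were lower at T2, beside 0.476% of all genes tested. They were Rpl23, by -0.46 ± 0.0735 (log2, SE, adjusted p = 0.032), and Rps14, by -0.31 ± 0.0562 (adjusted p = 0.044). Rpl23 stood at 113, 100.4 and 136 CPM at T1 and 78.2, 66.8, 111 and 95.4 at T2, so that the stages overlapped. From T2 to T3 there were again 0 lower and 0 higher members (0.691% and 0.5% of 12599 genes tested) by edgeR. At an unadjusted p under 0.05 there were 0 lower and 3 higher, beside 954 and 1190 of all genes tested. DESeq2 called 0 in either direction. The median was 0.08, and -0.10 without T3 replicate 4.

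The members moved together from library to library. Of the 77 members, 64 were highest in T0 replicate 3 among the T0 libraries, 55 in T1 replicate 3 among T1, 57 in T2 replicate 3 among T2 and 65 in T3 replicate 4 among T3. The lowest library was T1 replicate 2 in 56 members and T2 replicate 2 in 59. All values of a library share its depth and scaling, so this order describes libraries rather than genes.

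**Figure D3:**
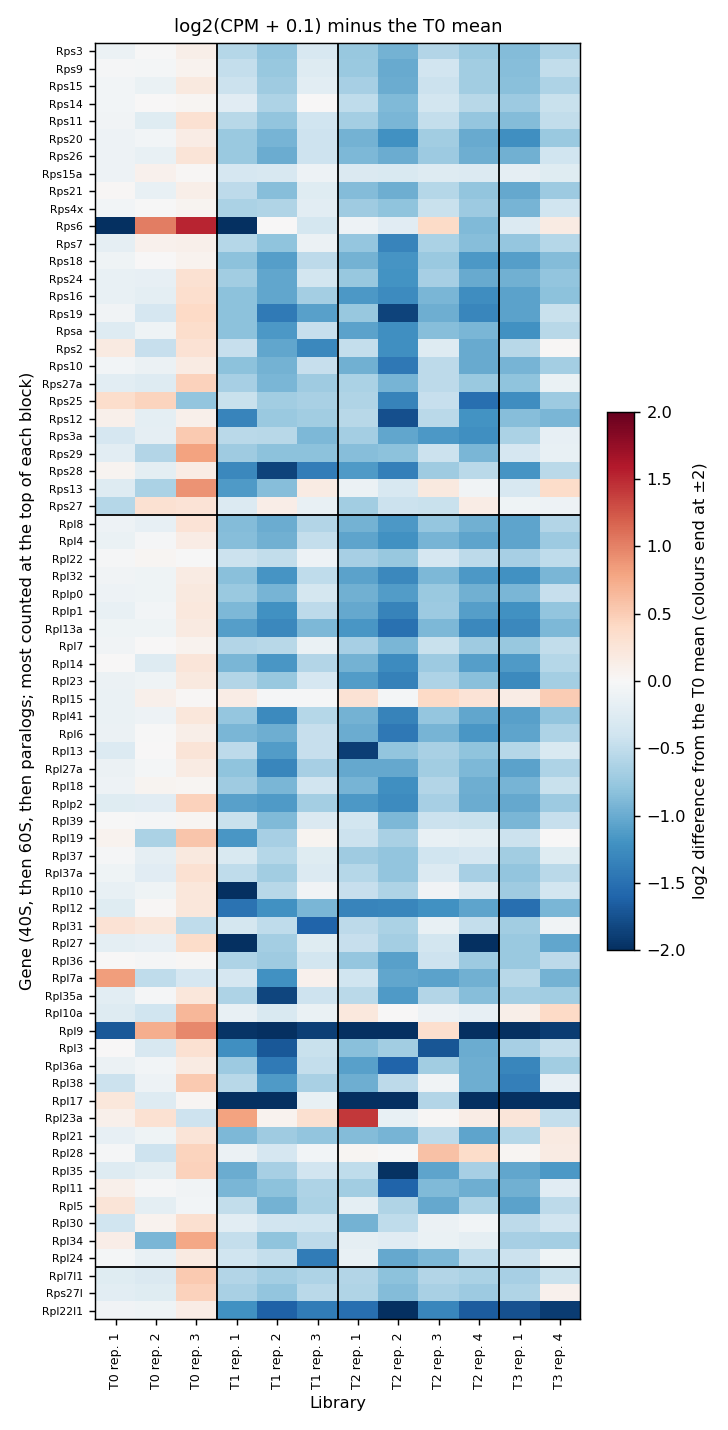
log2(CPM + 0.1) of 73 of the 77 members (rows, most counted first within the 40S, 60S and paralog blocks) minus its T0 mean, in each of the 12 libraries (columns), with blue below and red above the T0 mean and colours ending at 2 log2 units. Most rows turn blue from T1 on, Rpl15 does not, and Rps6, Rpl9 and Rpl17 change sharply between libraries of one stage.

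The largest fall that was past the threshold at T1, T2 and T3 alike was that of Rpl22l1, the paralog of the 60S protein Rpl22. Its level was 71.0, 70.1 and 82.0 CPM at T0, 24.2 to 32.01 at T1, then 18.1 to 29.97 at T2, with 22.1 and 19.7 at T3. Every later library lay far below the lowest T0 library, and the later stages overlapped each other. The log2 fold change against T0 was -1.42 ± 0.148 (SE, adjusted p = 0.001) at T1, -1.60 ± 0.169 (adjusted p = 0.00022) at T2 and -1.81 ± 0.175 (adjusted p = 0.015) at T3. At T3 the adjusted p ranged from 1e-12 to 0.14 over the alternatives.

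Rpl12, which sits beside the stalk of the large subunit, had 34.5, 41.3 and 47.8 CPM at T0 and 14.7, 17.6 and 21.5 at T1. At T2 it had 16.2, 16.5, 17.5 and 19.7 CPM, and at T3 14.2 and 21.7, all below T0. The log2 fold change was -1.21 ± 0.196 (adjusted p = 0.0052) at T1, -1.23 ± 0.146 (adjusted p = 0.00038) at T2 and -1.19 ± 0.262 (adjusted p = 0.061) at T3. Its exons overlap those of Lrsam1 on chromosome 2, and whether the counting used strand is not stated.

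Rpl13a, also part of a complex that represses translation in inflammation, had the highest FPKM of all members, with a mean of 2400 over the 12 libraries. Its exons overlap those of Flt3l. Its counts gave 377, 379 and 455 CPM at T0, 187, 165 and 216 at T1, 179, 143, 215 and 164 at T2, and 164 and 216 at T3. Every later library lay below every T0 library, while the later stages overlapped each other. The log2 fold change was -1.10 ± 0.149 (adjusted p = 0.0025), -1.20 ± 0.152 (adjusted p = 0.00054) and -1.07 ± 0.198 (adjusted p = 0.044) at the 3 stages in order. Rpl32, another core 60S protein, had 458 to 547 CPM at T0, 216 to 344 at T1, then 201 to 263 at T2, with 211 and 259 at T3, with log2 fold changes of -0.82 ± 0.191 (adjusted p = 0.018), -1.09 ± 0.126 (adjusted p = 0.00033) and -1.04 ± 0.183 (adjusted p = 0.04).

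Among the proteins of the small subunit, Rps18 was past the threshold at all later stages. It had 81.0, 86.0 and 90.3 CPM at T0 and 48.6, 39.9 and 59.8 at T1. It had 44.4, 37.8, 51.0 and 38.5 CPM at T2 and 39.8 and 47.02 at T3, with no overlap with T0. The log2 fold change was -0.80 ± 0.167 (adjusted p = 0.013), -0.99 ± 0.129 (adjusted p = 0.00059) and -0.97 ± 0.161 (adjusted p = 0.035). Rps19, the gene most often mutated in Diamond-Blackfan anaemia, had 68.5, 57.3 and 95.1 CPM at T0, 40.8, 27.04 and 33.9 at T1, 42.7, 19.8, 36.5 and 29.0 at T2, and 34.3 and 53.0 at T3. It was lower at T1 by -1.13 ± 0.233 (log2, adjusted p = 0.012) and at T2 by -1.20 ± 0.265 (adjusted p = 0.0076), and the T3 value was -0.74 ± 0.296 (adjusted p = 0.18). Rps28 had 3.66, 3.04 and 3.88 CPM at T0 and 1.37, 0.904 and 1.28 at T1, a log2 fold change of -1.58 ± 0.278 (adjusted p = 0.0071), on 329 counts over all libraries. The exons of Rps18 overlap those of Vps52, and the exons of Rps28 overlap those of Kank3.

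The most abundant members per length included, beside Rpl13a, Rpl8, Rps9 and Rps15, with mean FPKM of 1426, 1079 and 946. Rpl8 held the most counts, 216992 of all libraries, and stood at 1944, 1870 and 2536 CPM at T0, 1057 to 1404 at T1, then 950 to 1224 at T2, with 1014 and 1394 at T3. Its log2 fold change was -0.82 ± 0.183 (adjusted p = 0.016) at T1, -0.96 ± 0.148 (adjusted p = 0.0014) at T2 and -0.80 ± 0.241 (adjusted p = 0.11) at T3. Rps9 and Rps15 gave -0.69 and -0.68 at T2 (adjusted p = 0.0067 and 0.007). In these genes, no library of a later stage reached the lowest T0 library.

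The P-stalk, formed by Rplp0 with Rplp1 and Rplp2, recruits the elongation factors to the ribosome. With all libraries in the fit, all 3 genes were called lower at T1 and at T2. Rplp0 had 416, 422 and 512 CPM at T0, 269, 234 and 352 at T1, 230, 206, 267 and 231 at T2, and 238 and 325 at T3. The log2 fold changes of Rplp0, Rplp1 and Rplp2 were -0.667, -0.865 and -0.9996 at T1 (adjusted p = 0.032, 0.019 and 0.018). At T2 they were -0.94, -1.03 and -1.03 (adjusted p = 0.00074, 0.0014 and 0.0052). At T3 they were -0.66, -0.98 and -0.89, and none was past the threshold (adjusted p = 0.11, 0.058 and 0.11). Rpsa, a 40S protein also known as the laminin receptor, had 49.8, 56.2 and 75.9 CPM at T0 and 25.3 to 32.9 at T2. It was lower by -0.82 ± 0.231 (log2, adjusted p = 0.035) at T1 and -1.03 ± 0.167 (adjusted p = 0.0017) at T2.

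Other ribosome components are named outside the scheme. Gnb2l1 (Rack1), a scaffold on the head of the 40S subunit, was lower at T1 and T2, with 2587, 2742 and 2939 CPM at T0, 1458 to 2064 at T1 and 1220 to 1574 at T2 (-0.71 ± 0.174, adjusted p = 0.022, and -0.99 ± 0.125, adjusted p = 0.00054). Fau, a ubiquitin-like fusion with a 40S protein, gave -0.38 at T1 (adjusted p = 0.17) and -0.62 at T2 (adjusted p = 0.062).

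Each of 2 paralogs was set beside its parent, and the paralogs were not tested against each other. The ratio of Rpl22l1 to Rpl22 was taken within each library, which removes the scaling. On a log2 scale it was -2.69, -2.78 and -2.49 at T0, -3.44, -3.78 and -3.95 at T1, -3.50, -3.94, -3.63 and -3.79 at T2, and -3.74 and -4.05 at T3. All later libraries lay below all T0 libraries. The mean changed by -1.06 from T0 to T2 (exact permutation test, two-sided, p = 0.0571, the smallest that 3 against 4 libraries allow), by -1.07 from T0 to T1 (p = 0.1, also the smallest possible, exact permutation test) and by -1.24 from T0 to T3 (p = 0.2, the smallest possible, exact permutation test). None of these designs can reach 0.05. In the FPKM table the differences were smaller, -0.55 at T2, -0.67 at T1 and -0.66 at T3, with no overlap either. Rpl22 itself had 458, 480 and 461 CPM at T0 and 277 to 371 at T2, lower by -0.56 ± 0.123 (adjusted p = 0.0075). In FPKM it had 673, 683 and 930 at T0 and 276 to 362 at T2, a wider gap than in counts.

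The ratio of Rpl7l1 to Rpl7 overlapped between T0 and each later stage, with mean differences from T0 of -0.20, 0.03 and 0.07 in stage order (exact permutation p = 0.6, 0.914 and 1). Adjusted over the 6 exact permutation tests of both pairs against T0 in counts (Benjamini-Hochberg), p was 0.3 to 0.4 for Rpl22l1 and 0.9 to 1 for Rpl7l1. The overlap at T2 and T3 came from T0 replicate 3, where the ratio was -0.41, beside -1.05 and -1.17 in the other T0 libraries. Without it every T2 and T3 library lay above T0, and the differences at T1, T2 and T3 were 0.03, 0.26 and 0.30. Rpl7l1 was lower at T2 by -0.70 ± 0.198 (adjusted p = 0.021), or -0.39 without T0 replicate 3, where it stood at 176 CPM against 103 and 100.2 in the other T0 libraries. Rpl7 gave -0.67 ± 0.121 at T2 (adjusted p = 0.003). Rps27l, which p53 induces, was lower at T1 by -0.71 ± 0.209 (adjusted p = 0.041) and at T2 by -0.74 ± 0.179 (adjusted p = 0.011). At T3 it had 58.1 and 93.5 CPM against 76.1, 74.7 and 121 at T0, an overlap (-0.24 ± 0.308, adjusted p = 0.65). Its parent Rps27 held 165 counts in all and is listed at 0 FPKM in 6 libraries. Rpl36al, outside the naming rule, had 39.1 to 62.6 CPM at T0, 21.4 to 25.9 at T2, and its parent Rpl36a, a core member, was lower at T2 by -1.06 ± 0.218 (adjusted p = 0.0054). Rpl39 and Rps4x, the parents of other paralogs, were lower at T2 by -0.52 and -0.66 (adjusted p = 0.018 and 0.002), and Rpl10 was not past the threshold there (-0.35 ± 0.164, adjusted p = 0.11). Of the paralogs known from testis or muscle, Rpl10l held 1 count, Rpl39l 0 and Rpl3l 11. Rps4l was not in the count tables used here.

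**Figure D4:**
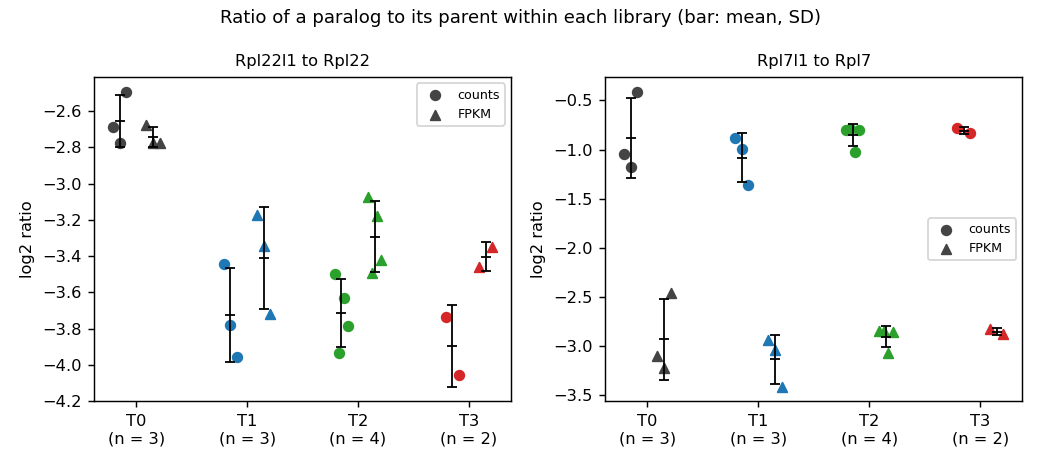
log2 ratio of the paralog Rpl22l1 to Rpl22 (left) and of Rpl7l1 to Rpl7 (right) within each library at T0 to T3, in counts (circles) and FPKM (triangles), with mean and SD as bars. The Rpl22l1 ratio lies lower in all later libraries than in the T0 libraries, by -1.07, -1.06 and -1.24 in counts, and the Rpl7l1 ratio overlaps between T0 and each later stage through T0 replicate 3 at T2 and T3.

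The members with small differences from T0 described here were picked out after their values were seen. Rpl15, a core 60S protein, had 87.9, 103 and 98.1 CPM at T0, 106, 94.7 and 94.7 at T1, 117, 93.3, 126 and 117 at T2, and 107 and 137 at T3. T0 overlapped T1 and T2, and both T3 libraries lay above T0. The log2 fold change was 0.02 ± 0.115 (adjusted p = 0.89), 0.24 ± 0.126 (adjusted p = 0.15) and 0.35 ± 0.172 (adjusted p = 0.25). Rpl15 held 16152 counts. Its exons overlap those of Nkiras1. Rps15a had 161, 182 and 176 CPM at T0 and 139 to 144 at T2, lower by -0.28 ± 0.0904 (adjusted p = 0.035). In FPKM the same gene had 1224, 1277 and 1442 at T0 and 501 to 760 at T2, a wider gap than in counts. Whether these members differed from the others was not tested.

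More members passed the test among those with more counts. Among the 26 members with the fewest counts (165 to 1885 over all libraries) 10 were lower at T2, against 20 of the 26 in the middle (2236 to 14130) and 24 of the 25 with the most (14294 to 216992). The medians of the log2 fold change, -0.76, -0.90 and -0.90, were closer than these counts, and the median SE was 0.305, 0.173 and 0.135. The 10 most counted members held 64.4% of all member counts, and the share of the family is therefore mostly theirs.

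**Figure D5:**
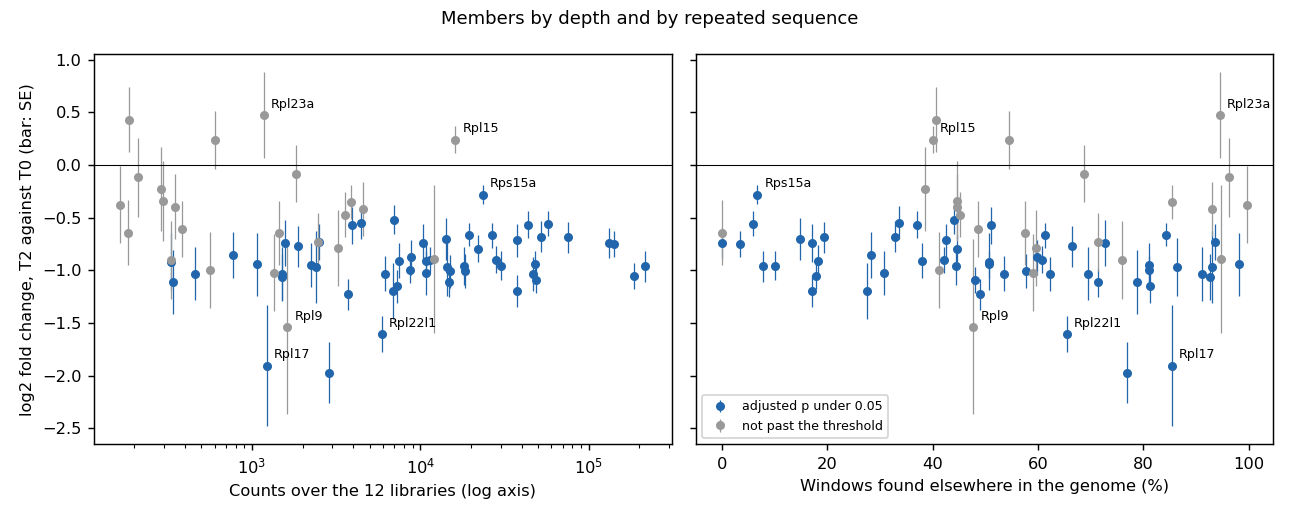
log2 fold change at T2 against T0 (y axis, bars are SE) for each member, against its counts over the 12 libraries on a log axis (left) and against the percent of 50-base windows of its longest transcript that occur elsewhere in the genome (right), in blue where the adjusted p was under 0.05. Nearly all of the 25 most counted members are blue (24), and members with few and with many repeated windows lie at similar heights.

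Reads lost to copies were gauged from the genome. The longest coding transcript of each gene (GENCODE vM1) was cut into windows of 50 bases, and each window was searched on both strands of NCBIM37, the assembly that mm9 names, outside the gene's own span. In 76 members with a transcript the median share of windows found elsewhere was 50.9%, and 40 had more repeated than unique windows. The share was 99.7% in Rps27, 98.1% in Rps12, 94.7% in Rps6 and 94.5% in Rpl23a, but 3.44% in Rps3 and 7.87% in Rpl8 (chromosome 15, 76734501 to 76736748). The number of places with a matching window was 13 for Rps27 and 17 for Rps6, and 129 for Rpl7a. In Rpl7l1, Rpl23, Rps13, Rps15a and Rps20 the places numbered from 634 to 18671. Their shares of repeated windows were 14.8%, 44.4%, 38.5%, 6.73% and 10.1% in turn. A place needs only 1 matching window, so these numbers do not count copies of the gene, and what the places are was not tested. A read that lies wholly in a matching window has no unique place. Across the 76 members Spearman's rho between the repeated share and depth-scaled counts per kilobase was -0.28, and -0.48 with FPKM, a description across genes that are not independent.

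The fall at T2 was present in members with few and with many repeated windows in the longest transcript. Of 13 members with under 20% repeated windows 12 were lower at T2 (median -0.74). Of 46 with 20% to 80% 30 were lower (median -0.87), and of 17 with over 80% 11 were lower (median -0.94). Over all genes tested 21.8% were lower. The groups of members by repeated share also differed in depth, with median counts of 37309, 3823 and 2400 in turn. The longest transcript, with 5130 bases in Rps15a and 4999 in Rpl24, need not be the one expressed in these cells. Members with many repeated windows differed in depth. Rps4x, with 84.3% repeated windows, held 19568 counts. Rps12 was lower at T2 by -0.94 ± 0.298 (adjusted p = 0.033), with a largest adjusted p of 0.38 over the alternative fits. Its FPKM were 14.2, 10.4 and 2.41 at T0 and 0.764 to 6.80 at T2, so these stages overlapped there. Rpl23a and Rps27 were not past the threshold, at 0.48 ± 0.406 and -0.38 ± 0.368 (adjusted p = 0.37 and 0.43). The members lowest in FPKM were Rps27, Rps3a, Rpl3, Rps13 and Rpl23a, with means of 0.266, 1.34, 2.94, 3.05 and 4.12, and of these Rps3a and Rpl3 were lower at T2 (-1.11, adjusted p = 0.018, and -1.04, adjusted p = 0.013).

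In 8 members the libraries of one stage differed more than 3-fold. Rps6, the substrate of the S6 kinases, had 12.6, 149 and 211 CPM at T0 and 16.3, 73.8 and 57.4 at T1, and 9.79, 140 and 213 FPKM at T0, so the low value of T0 replicate 1 was in both tables. It held 12002 counts, and its T2 value was -0.89 ± 0.706 (adjusted p = 0.33). Rpl17 had 18.7, 13.4 and 16.5 CPM at T0, 2.15, 1.88 and 14.4 at T1 and 2.80, 1.39, 10.7 and 2.45 at T2. It was lower at T2 (-1.90 ± 0.578, adjusted p = 0.028) and at T3, with 2.41 and 3.24 CPM (-2.51 ± 0.307, adjusted p = 0.02). Rpl9 had 5.38, 29.3 and 34.2 CPM at T0 and 4.46, 3.69 and 4.68 at T1 (-2.43 ± 0.627, adjusted p = 0.026), but 22.1 CPM in T2 replicate 3 beside 3.01 to 3.44 in the other T2 libraries. Rpl10, Rpl27, Rpl34 and Rps13 were also of this kind. The median share of repeated windows was 68.2% in the 8 and 50.8% in the other 68.

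Counts and FPKM gave different levels for some genes. Rpl26 had 2 counts in all 12 libraries, but 307, 328 and 395 FPKM at T0, 177 to 275 at T1, then 147 to 198 at T2, with 155 and 160 at T3, all lower than at T0. Of its windows 49.5% occur elsewhere, and the cause of the low count was not tested. Rpl24, just inside the minimum with 184 counts, had a mean FPKM of 12.4. It was not past the threshold at T2 (-0.64 ± 0.311, adjusted p = 0.13), and its exons overlap those of Pcnp. The ratio of FPKM to depth-scaled counts per kilobase (CPM per kilobase) had a median of 1.37 over the members and ran from 0.0872 in Rps27 to 51.3 in Rpl24. It was also high in well counted members, at 29.7 in Rps15a, 28.3 in Rpl18 and 14.96 in Rpl13a, and it was 1.62 in Rpl29 and 4.02 in Rps23. The ratio depends on the length used, and the longest transcript of Rpl24 has 4999 bases and that of Rps15a 5130. Rps23 and Rpl29, below the minimum, had mean FPKM of 1.44 and 0.979, with 92.2% and 86.0% of windows repeated.

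Lists of other genes of translation are given beside the 16.8%, 21.8% and 1.41% of all genes tested that were lower at T1, T2 and T3 in turn. Of 15 tested mRNAs outside the ribosome listed beforehand as TOP mRNAs, 9 fell at T1, 14 fell at T2 and 1 fell at T3. None was higher at any stage, and their medians were -0.52, -0.78 and -0.61. The start site search above found a tract in 4 of the 10 genes of this list with a promoter window (40%, beside 21.2% of all genes). Of 9 elongation and release factors 3, 7 and 1 were lower, with medians of -0.60, -0.64 and -0.48. Of 75 mitochondrial ribosomal proteins, which build the separate ribosome of that organelle, 17, 36 and 0 were lower and 0 higher, with medians of -0.42, -0.42 and -0.35. The initiation factors were called in both directions: 13 of 56 tested were lower and 5 higher at T1, 25 and 5 of 55 at T2, and 0 and 0 at T3, with medians of -0.32, -0.39 and -0.35. The lists overlap, since some initiation and elongation factors are also TOP mRNAs, and differences between the lists were not tested.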

How the data were processed

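RNA-seq had been made from ANS cells (T0, T1, T2 and T3, 3, 3, 4 and 2 libraries). Per the labels and the methods, the authors aligned reads to mouse mm9 with TopHat2 2.0.6 and Bowtie 0.12.7.0, and the submitters' notes also name HTSeq 0.6.0. They deposited raw counts per gene for each library, for 22609 genes, with 5 further entries (such as no feature) that held 43.1% to 48.1% of all entries and were left out. FPKM values were deposited by the authors in 1 table, whose tool is not given in the sources used here. Of its columns of samples, 0 were left out. The name of 1 holds the numbers 2 and 4, and it was matched to T3 replicate 4 because no T3 sample is numbered 2. Strand use in counting is not given in the sources used here.

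Counts were tested with edgeR 4.0.16 (filterByExpr, TMM factors, quasi-likelihood test, the 2 groups compared only), with Benjamini-Hochberg adjustment over all genes tested and a threshold of 0.05. CPM are counts scaled to the TMM-adjusted totals of all 12 libraries, and marker sums use unadjusted totals. FPKM were tested with limma 3.58.1 on log2(FPKM + 1), a scale that understates changes of low genes, and DESeq2 1.42.0 was an alternative. Intervals cover counting error only. The scripts were tested on simulated data. Same-numbered libraries deviated together between T1 and T2 (correlations of 0.241, 0.396 and 0.189). The largest correlation there, 0.414, was between T2 replicate 4 and T1 replicate 3, whose numbers differ. The check therefore does not establish that the numbers pair those libraries, and the labels do not say so. For T0 with T1 (-0.00782, 0.135 and 0.0818) and T0 with T2 (-0.0803, 0.0213 and -0.155) the check showed no pairing by number.

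The members and all lists were chosen with earlier results of these data known. Genes named are the 5 largest falls and rises past the threshold with groups that do not overlap in each comparison, Rplp0, Rplp1, Rplp2 and Rpsa, paralogs with parents, Fau and Gnb2l1, the 5 highest and 5 lowest in FPKM, the 5 with most repeated windows and those next to the count minimum. Others were named after their values were seen. A few genes that the rule also takes are not reported here, but they count in all totals.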

Additional observations from a re-analysis of the deposited data

Results flagged for a closer look

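Among the 4 T2 libraries, 1 value lay far from the other 3 for 6 of 89 measures by Dixon's ratio at the 95% level, where chance flags about 1 in 20. Rpl9 was at 22.1 CPM in T2 replicate 3, beside 3.01 to 3.44 in the others. Rpl17 was at 10.7 CPM in the same library, beside 1.39 to 2.80. Rps29 was at 2.10 CPM there, beside 1.47 to 1.58. Rpl23a was at 16.9 CPM in T2 replicate 1, beside 5.66 to 6.99, and Rpl7a at 15.6 CPM there, beside 9.69 to 10.5. Rpl10l was at 0.0613 CPM in T2 replicate 4, which is its 1 count, beside 0 in the others.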

How the results depend on the processing

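The count of members lower at T1 than at T0, 39, was 15 in FPKM with a pseudocount of 1, 18 with 0.1 and 6 without a filter. In these FPKM fits 20%, 24% and 7.89% of members tested were lower, beside 10.5%, 10.7% and 5.41% of all genes. The count ran from 6 to 48 when single libraries were left out (7.5% to 24.9% of all genes lower). The count lower at T2, 54, ran from 46 to 56 without single libraries (16.6% to 25.3% of all genes lower). Without T2 replicate 2, 1 member, Rpl15, was called higher, beside 2264 of 12517 genes tested. The count lower at T3, 5, was 34 with DESeq2 (5.41% of all genes lower) and 14 with no filter beyond 1 count (2.62%). It was 3 with at least 10 counts in every library (0.811%). It was 39 in one fit of all 12 libraries (14.4%), with 1 higher (2000 of 12952 genes). In FPKM it was 1 with either pseudocount (0.445% and 0.581%) and 0 without a filter (0.0356%). It ran from 0 to 27 without single T0 libraries (0.00794% to 8.49%). Without T3 replicate 1 or T3 replicate 4 the median was -0.54 or -0.89, and the 1 T3 library left was assumed to vary like T0. The replicate block gave 36 lower members at T1 and 39 at T2 against T0 (13.9% and 12.2% of all genes lower). For these stages the check of same-numbered libraries showed no pairing by number. For T2 against T1, where pairing was not settled, the block gave 2 in place of 0 (0.476% of all genes lower). No paired fit was made for T3 against T0, which share 1 number. For T3 against T2 the count higher ran from 0 to 1 without single libraries (Rps27l), and the median ran from -0.10 to 0.27. The causes were not tested. No member called against T0 changed direction under any alternative. The median share of repeated windows, 50.9%, was 58.7% with windows of 36 bases, 46.8% with 75, and 46.9% over all coding transcripts, an alternative chosen after seeing the data. Low counts limit Rps27 and Rpl24.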
